A study of Sus scrofa with 4 samples.

Results

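Neighbouring protein-coding genes of the pig genome often lie very close together, and the short intervals between them are described here. A gap was an interval of 1 to 1000 bp that no protein-coding RefSeq model covered, between the end of one model and the start of the next on chromosomes 1 to 18 (Sscrofa11.1). There were 1969 such gaps among 16325 gaps of any length. They held 627508 bp in all, with a median length of 198 bp (quartiles 97 and 527), and they bordered 3553 of 18722 models (19%), of which 385 had a gap on each side.

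Accessible chromatin was mapped by ATAC-seq, which uses Tn5 transposase to fragment and tag open DNA, to ask how BRG1 bears on chromatin openness in the donor cells of cloned pig embryos. BRG1 (gene SMARCA4) is the motor subunit of BAF, a complex that uses ATP to move and eject nucleosomes. The cells were porcine fetal fibroblasts (PFFs) from skin, all under serum starvation, and they carried pTK-642-BRG1 and over-expressed BRG1 (libraries BRG1 1 and BRG1 4) or carried pTK-642 and were labelled wild type (libraries control 1 and control 4). Nothing in the labels says that replicates were separate cultures, so p-values measure only how these samples spread, which may be technical.

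The deposited lists held 96367 and 90851 peaks in the BRG1 libraries and 107475 and 105954 in the control libraries, and the absolute depth behind them is unknown. At the chromosome level, gap numbers ran between 4.81 per 100 models on chromosome 8 and 16.1 on chromosome 12. Of 14 fibroblast marker genes, 12 had a peak within 1 kb of an end in all 4 libraries, and FN1 (fibronectin) and DCN (decorin) did not. The same held for 2 of 6 keratinocyte, 1 of 6 endothelial and 3 of 6 immune markers. Whether other cells took part in the results below was not tested.

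Genes that start close together and point away from each other can share a promoter, a stretch of open chromatin from which transcription runs both ways. Many such pairs in mammals serve housekeeping tasks such as DNA repair, mitochondrial function and RNA processing. Genes in tandem or with facing 3′ ends also have short intervals between them, and 3′ ends are usually less accessible than promoters. The gene table used here gives no strand, so these arrangements are not distinguished below.

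A peak overlapped 1066 of the 1969 gaps in all 4 libraries (54.1%), and these are called open gaps. Another 841 gaps (42.7%) had no peak in any library. Calls were thus unanimous for 1907 gaps (96.9%), and 62 gaps (3.15%) were split between libraries. The gap's centre lay under a peak in all 4 libraries in 932 gaps (47.3%). In these bulk samples, a site open in fewer cells and a site less open in each cell cannot be told apart.

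Longer intervals and windows of fixed size give the scale of these shares. A peak in all 4 libraries touched 49.6% of gaps over 1000 and up to 5000 bp, 64.2% of gaps over 5000 and up to 20000 bp, 70.2% of all gaps and 4.75% of consecutive 1 kb windows. Long gaps offer more bases to hit, so the centre was compared as a point. It was covered in all 4 libraries in 47.3% of gaps of up to 1000 bp, in 3.83% of gaps over 1000 and up to 5000 bp and in 2.12% of gaps over 5000 and up to 20000 bp. The centre of a longer gap also lies farther from any model end. These shares therefore do not separate the length of a gap from the distance to a model end. Model ends gave a similar picture: 47% of the ends that bordered a gap (1851 of 3938) lay under a peak in all 4 libraries, against 24.4% of the other ends (8190 of 33506). With 1 kb added on either side, 39% of all model ends had such a peak. No test was made over gaps, because gaps of the same library are not replicates.

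The shortest gaps were open most often. Of 514 gaps of 1 to 100 bp, 73% were open, against 52.1% of the next 478 gaps, up to 200 bp, and 54.1% of 344 gaps up to 400 bp. In the classes that ended at 600, 800 and 1000 bp the shares were 40.7, 37.2 and 44%. With the centre as a point the share declined at nearly every step, through 72.6, 50.2, 50.3, 29.9, 20.2 and 17.9%, while the centre moved away from the model ends. Each of the 4 libraries gave the same order of length classes, as the bars by gap length show.

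**Figure D1:**
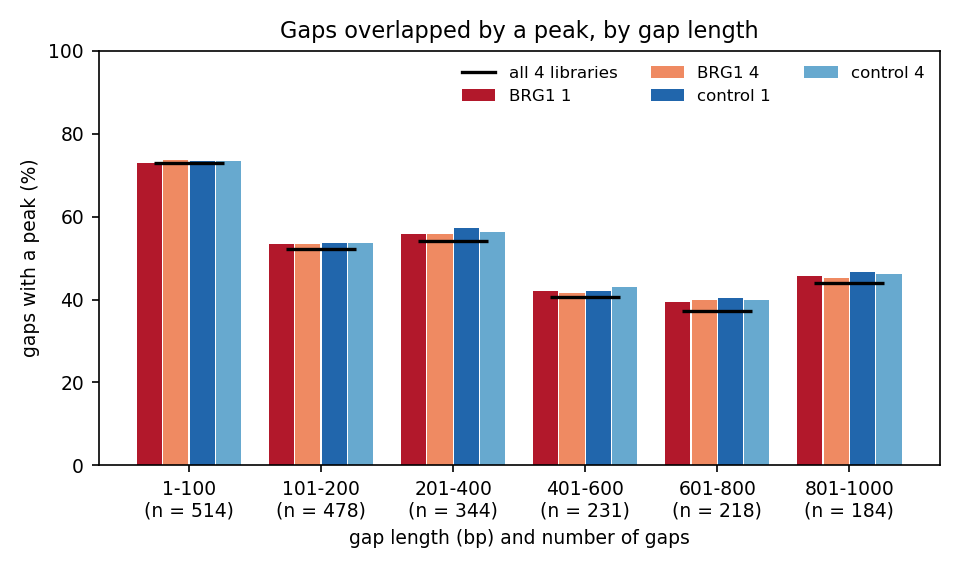
Percent of gaps overlapped by at least 1 peak, in 6 classes of gap length, for each of the 4 libraries (bars) and for all 4 libraries at once (black lines). In the shortest class 73% of 514 gaps had a peak in all 4 libraries, against 37.2% of the 218 gaps in the class that ended at 800 bp, and within a class the bars differ little.

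Length did not settle whether a gap was open. WDR46/PFDN6 on chromosome 7, with a gap of 1 bp at 29653568, was open, with peaks of 799 and 841 bp in the BRG1 libraries and 809 and 782 bp in the control libraries. PFDN6 encodes a prefoldin subunit. The 1 bp gaps CFB/NELFE (chromosome 7, 24040524) and PI4KB/ZNF687 (chromosome 4, 97949930) had no peak in any library. The other 3 of the 6 shortest gaps, all between models with LOC symbols, had none either. At the other extreme, FNBP4/AGBL2 and TRAPPC6A/BLOC1S3 had gaps of 1000 bp and were open, whereas ORC4/ACVR2A and LOC110256689/LOC110256690 had gaps of 1000 bp and no peak. Gaps of 2 bp without a peak included PPFIA3/HRC, CDC42EP5/LENG9 and PRICKLE4/USP49.

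Open gaps were shorter and lay between longer genes. The bordering models had a median length of 16650.5 bp at open gaps and 11127 bp at gaps without a peak, and the gaps themselves had medians of 151 and 284 bp. Models with a gene symbol that is only a LOC number had peaks less often at their gaps. The share of open gaps was 55.9% of 1714 pairs without a LOC symbol, 49.2% of 181 pairs with 1 and 25.7% of 74 pairs with 2.

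The state of the gap went with the state of the far ends of the same pair of genes. An outer end is the end of a bordering model that faces away from the gap, and it was counted as accessible when a peak lay within 1 kb of it in all 4 libraries. Among open gaps, 60.8% had no accessible outer end, 30.8% had 1 and 8.44% had both. Among gaps without a peak, 17% had none, 39.8% had 1 and 43.2% had both. Turned round, the gap was open in 79.8% of 812 pairs with no accessible outer end, in 47.4% of 692 pairs with 1 and in 19.4% of 465 pairs with both. The contrast held in short and longer gaps, but its size differed. Up to 200 bp, 70.8% of 624 open gaps and 18.1% of 348 gaps without a peak had no accessible outer end, and over 200 bp the shares were 46.6% of 442 open gaps and 16.2% of 493 gaps without a peak.

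Short models could blur this contrast, since the outer window of a short model can reach the gap's own peak. Where both models were at least 5 kb long, 67.6% of 769 open gaps had no accessible outer end, against 15.5% of 484 gaps without a peak. Both outer ends were accessible at 6.63% of the open gaps and 43.2% of the gaps without a peak. Over all 18722 models the ends were accessible at neither side in 31.2%, at 1 side in 59.7% and at both in 9.12%. Over the 15173 models of at least 5 kb these shares were 25.8, 65.6 and 8.6%. Here both ends belong to the same gene, whereas the outer ends of a pair belong to different genes. The shares of single models are therefore no baseline for those of pairs.

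**Figure D2:**
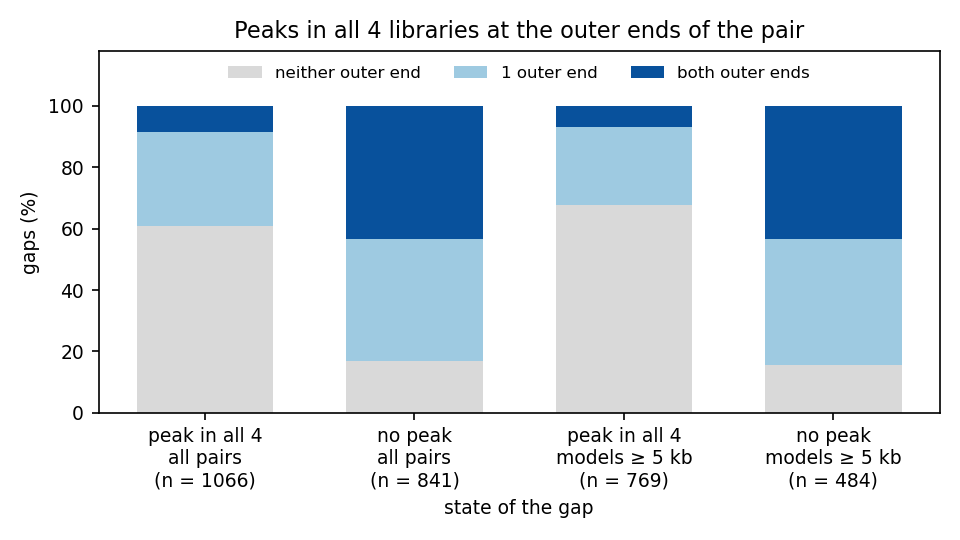
Percent of gaps whose pair of models had a peak in all 4 libraries within 1 kb of neither, 1 or both outer ends, for open gaps and gaps without a peak, over all pairs and over pairs whose models are both at least 5 kb long. Both outer ends were accessible at 8.44% of 1066 open gaps and at 43.2% of 841 gaps without a peak.

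Genes with a gap on each side often had 1 open gap and 1 without a peak. Among the 385 models with 2 gaps, 1 gap was open and the other without a peak in 256 (66.5%), both were open in 53 and both were without a peak in 56. A split gap was involved in the other 20. For scale, a peak in all 4 libraries lay within 1 kb of exactly 1 end in 59.7% of all 18722 models. The same held for 67.5% of these 385 models. A peak at only 1 end was thus common among all models, and the mixed state was not shown to be particular to genes between gaps. Where the summit had to lie in the gap, the share that differed in state was 31.2%. The longest runs had 6 gaps in a row. On chromosome 7, from 24034043 to 24068018, the run of C2, CFB, NELFE, SKIV2L, DXO, STK19 and C4A alternated strictly, beginning with an open gap and ending with one without a peak. These genes of the major histocompatibility complex region include the complement components C2, factor B (CFB) and C4A. They also include NELFE, a subunit of the negative elongation factor of transcription, and the RNA processing factors SKIV2L and DXO. The run of SCGB1C1, ODF3, BET1L, RIC8A, SIRT3, PSMD13 and COX8H on chromosome 2 had 2 open gaps, BET1L/RIC8A and SIRT3/PSMD13, and 4 without a peak.

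Pairs already known in other mammals to share a promoter were listed, and the list was read against the gaps. Of 21 listed pairs, 17 had both symbols in the gene table and 12 formed a gap of up to 1000 bp. Of these 12, 11 were open, beside 54.1% of all gaps. Pairs picked for a shared promoter were likely to have a peak beforehand, and the share was not adjusted for gap length or arrangement. Each value below is that of the strongest peak on the gap, and a percentile is the peak's rank by −log10 p within its own list, with 100 as the strongest.

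HSPD1/HSPE1, which encode the mitochondrial chaperonin HSP60 and its partner HSP10, have a gap of 520 bp on chromosome 15 from 101373499 to 101374018. Its peak was 1124 and 1446 bp wide in the BRG1 libraries and 1305 and 1151 bp in the control libraries, and the ranges overlapped. All 4 peaks lay between percentiles 97.2 and 98.5 and covered the gap whole. The summit lay −49 and 83 bp from the gap's centre in the BRG1 libraries and −103 and −179 bp in the control libraries (negative towards lower coordinates).

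MCM4/PRKDC pairs a subunit of the replicative helicase with the catalytic subunit of DNA-dependent protein kinase across 410 bp of chromosome 4 (79686965 to 79687374). The peaks were 1268 and 1456 bp wide in the BRG1 libraries and 1399 and 1147 bp in the control libraries. Here the summits lay −383 and −371 bp from the centre in the BRG1 libraries and −379 and −380 bp in the control libraries, inside the MCM4 model. The summits of all 4 libraries thus lay off the gap, within a few bases of each other, while the peaks themselves covered the gap.

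TAP1/PSMB9, which encode a peptide transporter and an immunoproteasome subunit of antigen presentation, are separated by 143 bp of chromosome 7 (25071990 to 25072132). Their peak had a fold enrichment of 19.5 and 14.7 in the BRG1 libraries and 18.9 and 19.9 in the control libraries. ZAR1L/BRCA2 have a gap of 73 bp on chromosome 11 (8805877 to 8805949), and BRCA2 is a mediator of homologous recombination. Its peaks were 1136 and 1117 bp wide in the BRG1 libraries and 855 and 1017 bp in the control libraries, so both BRG1 peaks were wider than both control peaks. Its summits lay −24 and −7 bp from the centre in the BRG1 libraries and −25 and −35 bp in the control libraries. TAP1/PSMB9 ranked above ZAR1L/BRCA2 in every library, and ZAR1L/BRCA2 lay between percentiles 84.5 and 87.6.

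The other open pairs of the list were TBP/PSMB1, FEN1/TMEM258, HADHB/HADHA, XRCC6/DESI1, TIMM8B/SDHD, PDCD10/SERPINI1 and TRMT2A/RANBP1. HADHB and HADHA are the subunits of the mitochondrial trifunctional protein of fatty acid oxidation, and their peak had the widest spread of rank, with percentiles of 63.5 and 82.5 in the BRG1 libraries and 74.9 and 68.3 in the control libraries. TBP/PSMB1 had the narrowest mean peak of the 11, 757 bp. TBP binds the TATA box and PSMB1 is a proteasome subunit.

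The exception was SGCE/PEG10, a neighbouring pair of imprinted genes, with a gap of 216 bp on chromosome 9 (74473905 to 74474120). Only BRG1 4 had a peak there, 202 bp wide and at percentile 33.5 of its list. In BRG1 1, control 1 and control 4 the nearest peaks lay 1174, 1160 and 1169 bp from the gap, and BRG1 4 had a peak at that position too.

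**Figure D3:**
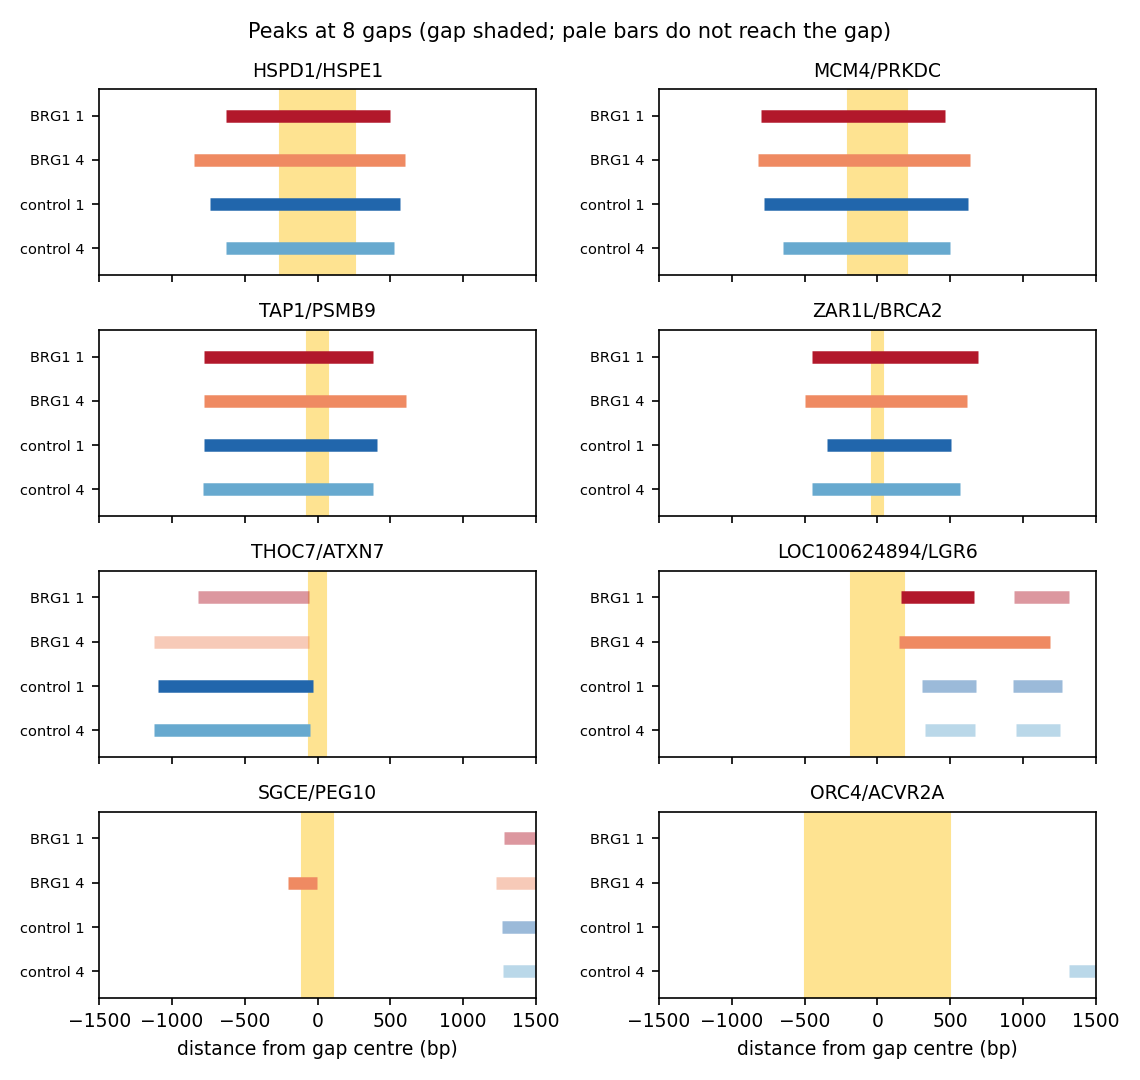
Peaks of the 4 libraries within 1500 bp of the centre of 8 gaps, which are shaded; full-colour bars overlap the gap and pale bars do not. HSPD1/HSPE1, MCM4/PRKDC, TAP1/PSMB9 and ZAR1L/BRCA2 are covered in all 4 libraries, the THOC7/ATXN7 and LOC100624894/LGR6 peaks differ at an edge, SGCE/PEG10 has a narrow peak in BRG1 4, and ORC4/ACVR2A has none on the gap.

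Gaps bordered by genes of the same process were counted by symbol, as descriptions beside the 54.1% of all gaps. Shorter gaps were open more often, and group shares were not adjusted for length. The mitochondrial ribosome had the highest share of open gaps among groups with more than 10 gaps, 22 of 27 (81.5%). The median gap length in this group was 117 bp, against 198 bp for all gaps. MRPS11/MRPL46, which encode proteins of the small and the large mitochondrial subunit, are 38 bp apart on chromosome 1 (191321952 to 191321989). Their peak ranked at percentiles 92.7 and 97.0 in the BRG1 libraries and 93.6 and 93.8 in the control libraries. NCAPD2/MRPL51 had a gap of 7 bp and MRPL47/NDUFB5 one of 22 bp, and both were open. NCAPD2 is a condensin subunit and NDUFB5 a subunit of respiratory complex I.

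DNA repair and replication genes bordered 49 gaps, of which 34 were open (69.4%), 14 had no peak and 1, CDC6/WIPF2, was split. The median length of these 49 gaps was 109 bp. MRE11/ANKRD49, with the gene of a nuclease of double-strand break repair, have a gap of 19 bp on chromosome 9 (26634597 to 26634615). Its peak was 1101 and 1143 bp wide in the BRG1 libraries and 1093 and 1045 bp in the control libraries, with percentiles of 97.5 and 98.3 in the BRG1 libraries and 97.2 and 97.7 in the control libraries. Both BRG1 peaks were wider than both control peaks, and the percentiles overlapped. CHEK2/HSCB (109 bp), with the gene of a checkpoint kinase, was open too.

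A gene of this group could have the opposite gap on its other side. ORC4, a subunit of the origin recognition complex, is bordered by MBD5 across 79 bp with a peak and by ACVR2A across 1000 bp without one. FANCG/PIGO, COPS6/MCM7 and ORC4/ACVR2A had no peak on the gap in any library and accessible outer ends on both sides.

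RNA polymerase and splicing genes had 21 of 29 gaps open (72.4%), among them COG4/SF3B3, CBX3/HNRNPA2B1 and SLC35G6/POLR2A, which encode a subunit of splicing factor SF3b, an RNA-binding protein and the largest subunit of RNA polymerase II beside their neighbours. Here the median gap length was 223 bp. Gaps matched by the proteasome symbol pattern were open in 11 of 17 (64.7%). That pattern also took in PSMG assembly factors and PSMC3IP, which is not a proteasome subunit. The respiratory chain and ATP synthase pattern, which also took in NDUFAF assembly factors and the symbols ATP5S and ATP5SL, gave 22 of 38 (57.9%). Aminoacyl-tRNA synthetases had 5 of 6, and CCER2/SARS2 was split. Zinc finger genes had 29 of 49 open (59.2%).

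Cytosolic ribosomal protein genes had 17 of 35 gaps open (48.6%), 15 without a peak and 3 split. These shares of zinc finger and ribosomal protein genes lay near that of all gaps. The same gene could stand on both sides of the count. RPL5/EVI5 was open across 165 bp and FAM69A/RPL5 without a peak across 446 bp, and RPS27A/CLHC1 was open across 49 bp and MTIF2/RPS27A without a peak across 153 bp. RPL5 and RPS27A encode proteins of the large and the small cytosolic subunit.

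Gaps matched by chemokine, interferon, lectin and CD antigen symbols were open in 7 of 19 (36.8%). Their median length was 445 bp, and in the length class that holds it 40.7% of all gaps were open. CD3EAP, which is not a CD antigen, also matched, and its gap with PPP1R13L was open. Cytochrome P450 symbols gave 1 of 4. CD84/SLAMF6 and ARHGEF1/CD79A had no peak on the gap and no accessible outer end, and IFNAR2/IL10RB, receptor subunits for interferon and interleukin 10, was open across 965 bp. No histone or olfactory receptor symbol matched the patterns used, and the keratin pattern met 3 gaps of the keratinocyte-associated proteins KRTCAP2 and KRTCAP3, of which 2 were open. Gaps in no group were open in 52.8% of 1696.

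Pairs whose symbols share a letter stem were looked at after their values had been seen. A shared stem does not by itself make a gene family, and TMEM132A/TMEM109 was among these pairs. Of 45 such pairs, 16 were open (35.6%). ZNF, ZSCAN or ZBTB pairs made up 9 of them, with 8 open, among them ZNF263/ZNF200, ZNF568/ZNF829 and ZBTB25/ZBTB1. Of the other 36 pairs, 8 were open (22.2%), such as SAFB/SAFB2 and MYL6B/MYL6. The median gap length was 76 bp in the 9 pairs and 303.5 bp in the other 36, and the shares were not adjusted for length. CLDN6/CLDN9, KLK4/KLK5, APOC4/APOC2, ABCG8/ABCG5 and HOXB5/HOXB6 had no peak on the gap. These are claudins, kallikreins, apolipoproteins, sterol transporters and homeobox genes.

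BAF subunit genes bordered 5 gaps, which bear on the complex of the over-expressed protein. SMARCD2/PSMC5 (46 bp) had no peak and accessible outer ends on both sides. TRIP13/BRD9, PSMA7/SS18L1, SS18L1/MTG2 and TFR2/ACTL6B were open. TRIP13/BRD9, across 44 bp, had its peak at percentiles of 74.4 and 35.6 in the BRG1 libraries and 59.4 and 49.4 in the control libraries. Its rank differed more between BRG1 1 and BRG1 4 than between the control libraries. ACTL6B, a subunit of the neuronal complex, had the weakest of these peaks, at percentiles of 18.2 and 29.4 in the BRG1 libraries and 47.5 and 43.7 in the control libraries, so both BRG1 values lay below both control values. The share of all open gaps whose percentiles separate in this way was not counted, so no effect of BRG1 is read from this gap. Collagen genes bordered 2 gaps, UCN2/COL7A1 and COL23A1/PHYKPL, both open and both over 900 bp.

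Peaks over gaps were wide and strong within their own lists. Their median width was 976.5 and 1152 bp in the BRG1 libraries and 987 and 941 bp in the control libraries. Other peaks of the same chromosomes had medians of 400 and 536 bp in the BRG1 libraries and 400 and 393 bp in the control libraries. These other peaks were not limited to model ends, and a wide peak is more likely to touch a gap. Whether width and rank are particular to gaps was therefore not tested. The ratio of these medians was 2.44 in BRG1 1, 2.15 in BRG1 4, 2.47 in control 1 and 2.39 in control 4. The median percentile was 94.2 and 93.6 in the BRG1 libraries and 94.2 and 93.9 in the control libraries, where other peaks lay near the middle of their lists. The authors' fold enrichment had medians of 16.1 and 13.2 over gaps in the BRG1 libraries and 15.7 and 16.0 in the control libraries, against 8.22 and 6.85 for other peaks in the BRG1 libraries and 7.55 and 7.88 in the control libraries.

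**Figure D4:**
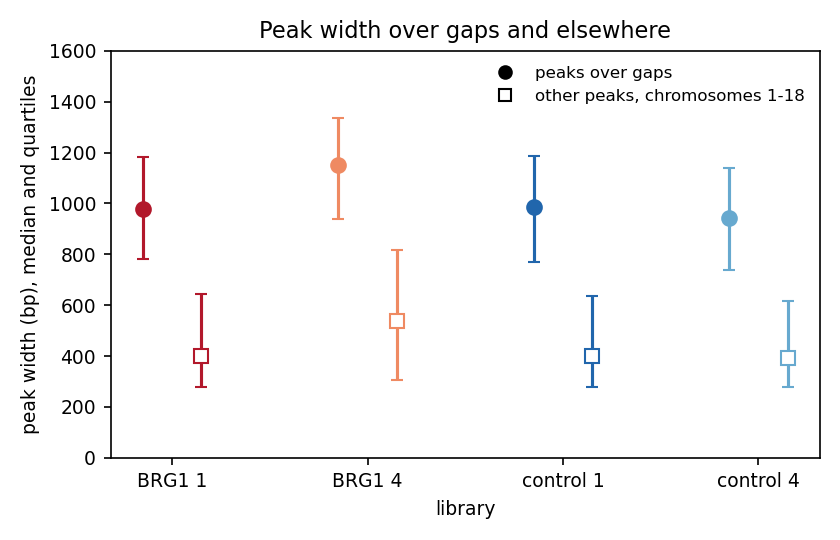
Median width in bp of the peaks that overlapped a gap (filled circles) and of all other peaks on chromosomes 1 to 18 (open squares) in each library, with quartiles as bars. Peaks over gaps had medians of 941 to 1152 bp and other peaks 393 to 536 bp, and BRG1 4 was the widest in both classes.

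Few peaks fell on gaps, and their share was higher at the top of each list. Peaks over gaps numbered 1098 and 1100 in the BRG1 libraries and 1115 and 1114 in the control libraries, which is 1.19 and 1.26% of the BRG1 peaks and 1.08 and 1.1% of the control peaks on chromosomes 1 to 18. Of the top 1% of peaks by −log10 p, 143 of 930 and 134 of 871 overlapped a gap in the BRG1 libraries and 159 of 1041 and 157 of 1030 in the control libraries. These shares were 15.4% in both BRG1 libraries, 15.3% in control 1 and 15.2% in control 4.

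The 8 open gaps of highest mean percentile were TIMM21/FBXO15, NAIF1/SLC25A25, HDGFL2/UBXN6, GRK6/F12, TMEM218/PKNOX2, CAMTA2/SPAG7, RRP9/PARP3 and KCTD9/CDCA2. TIMM21, a subunit of the mitochondrial import machinery, and FBXO15 flank 128 bp of chromosome 1 (149855904 to 149856031). Their peak was 993 and 1145 bp wide in the BRG1 libraries and 1185 and 1317 bp in the control libraries, so both BRG1 peaks were narrower than both control peaks. TMEM218/PKNOX2 had its summit −31 bp from the centre of a gap of 255 bp in every library, with a fold enrichment of 24.4 and 20.7 in the BRG1 libraries and 25.1 and 24.9 in the control libraries. GRK6 encodes a receptor kinase and F12 coagulation factor XII, and their peak of 961 and 993 bp in the BRG1 libraries and 961 and 932 bp in the control libraries varied little.

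By mean width over the 4 libraries, the widest peaks lay over FLOT1/IER3 on chromosome 7 (gap of 394 bp, 23265166 to 23265559), with 2738 and 2753 bp in the BRG1 libraries and 2773 and 2781 bp in the control libraries. FLOT1 is a membrane scaffold protein and IER3 an immediate early response gene. On chromosome 4 a single peak spanned the gaps LOC100154181/LOC106510170 and LOC106510170/LOC100738859, with widths of 2021 and 2809 bp in the BRG1 libraries and 2025 and 2330 bp in the control libraries. In BRG1 4 that peak was the widest over any gap. GNL1/PRR3 and ENOPH1/HNRNPDL completed the 5 widest. The narrowest of all open gaps' peaks were over CCK/LOC110256272, TROAP/C1QL4 and PEG3/LOC110261077, with mean widths of 226.5, 246 and 255.75 bp. CCK encodes the gut and brain peptide cholecystokinin, and PEG3 is an imprinted zinc finger gene.

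Most open gaps were covered whole. A gap lay wholly inside peaks in 825 and 849 cases in the BRG1 libraries and in 831 and 817 in the control libraries, or 75.8, 77.7, 75.4 and 74.4% of the gaps with a peak in BRG1 1, BRG1 4, control 1 and control 4. At 1 to 100 bp this share was 99.2 and 98.9% in the BRG1 libraries and 99.5 and 98.1% in the control libraries. In the longest class, up to 1000 bp, it was 7.14 and 14.5% in the BRG1 libraries and 5.81 and 3.53% in the control libraries. Over all gap bases, 34.8 and 36.8% lay under peaks in the BRG1 libraries and 35.3 and 34.7% in the control libraries.

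The summit, the point of highest pileup, often lay outside the gap. It was in the gap in 53.1 and 51.2% of open gaps in the BRG1 libraries and in 53.3 and 53.4% in the control libraries, and within 200 bp of it in 86.5 to 89.7%. Summits outside split about evenly between both models, with 257 and 281 in the lower-coordinate model and 243 and 239 in the higher in the BRG1 libraries, and 257 and 263 against 241 and 234 in the control libraries. The place was stable: over the 4 libraries the summits of a gap spanned a median of 30 bp, and in 764 of 1066 gaps (71.7%) they fell in the same place, of which 433 were in the gap, 173 in the lower model and 158 in the higher. In 16 gaps they spanned more than 1000 bp.

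BRG1 over-expression was set against the control for 6 measures per library, each by a two-sided exact permutation test with Benjamini-Hochberg adjustment over the 6. With 2 libraries against 2, the smallest p such a test can give is 0.33, so none could pass 0.05. Gaps with a peak numbered 1089 and 1092 in the BRG1 libraries and 1102 and 1098 in the control libraries. The means were 1090.5 ± 2.12 with BRG1 and 1100 ± 2.83 in controls (SD, n = 2 each), a difference of −9.5 gaps with an exact p of 0.33 and an adjusted p of 0.67. Both BRG1 values lay below both control values, as did the lengths of the BRG1 lists, and with lists cut to equal length the difference was 0.

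The other measures overlapped between the groups. Median peak width over gaps averaged 1064.25 ± 124 bp with BRG1 and 964 ± 32.5 bp in controls (SD, n = 2 each), with an exact permutation p of 0.67. The ratio to other peaks averaged 2.30 ± 0.206 with BRG1 and 2.43 ± 0.0517 in controls (SD, n = 2 each; exact permutation p = 0.67). The share of gap bases under peaks was 35.8 ± 1.43% with BRG1 and 35.0 ± 0.431% in controls (SD, n = 2 each; exact permutation p = 0.67). Gaps wholly inside peaks averaged 837 ± 17.0 with BRG1 and 824 ± 9.90 in controls, and the median percentile 93.9 ± 0.441 with BRG1 and 94.1 ± 0.268 in controls (SD, n = 2 each; exact permutation p = 0.67 for both). All adjusted p-values were 0.67.

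The width difference came with 1 library. Among open gaps, both BRG1 peaks were wider than both control peaks in 276 of 1066 (25.9%), against 19% of 72213 merged peak regions found in all 4 libraries, and both were narrower in 55 (5.16%), against 14.3% of those regions. Yet BRG1 1 alone differed from the mean of the controls by a median of −2.75 bp and was wider in 48.4% of gaps. BRG1 4 alone differed from it by a median of 128.5 bp and was wider in 83.1%. BRG1 4 had the shortest list and the highest median width both inside and outside gaps. Without it the difference in median width over gaps was 12.5 bp, against 100.25 bp with it.

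A peak in both BRG1 libraries and neither control library was found at 1 gap (0.0508%), and the opposite pattern at 4 (0.203%). The order of these counts depended on the settings, with 6 BRG1-only and 2 control-only gaps in lists of 45425 peaks each, 7 and 2 where peaks had to cover 50% of the gap, and 7 and 28 where the summit had to lie in it. The same calls were made in 0.266 and 0.683% of gaps over 1000 and up to 5000 bp, in 0.122 and 0.734% of gaps over 5000 and up to 20000 bp, in 0.104 and 0.564% of all gaps and in 0.0923 and 0.302% of 1 kb windows, with BRG1-only first in each. Within 1 kb of a model end the shares were 0.168% BRG1-only and 0.51% control-only. Merged peak regions, of which 62% were found in all 4 libraries, were BRG1-only in 0.736% and control-only in 4.38%.

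The BRG1-only gap, LOC100624894/LGR6 on chromosome 10 (24358577 to 24358945), borders a gene for an R-spondin receptor of the Wnt pathway. Its peaks were 503 and 1038 bp wide in the BRG1 libraries and entered the gap from the LGR6 side. The control libraries had peaks 124 and 147 bp from the gap on the same side. In BRG1 4 the peak also extended over the start of another, separate peak of the other libraries. What differed at the gap itself was the edge of a peak that all 4 libraries had.

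THOC7/ATXN7 on chromosome 13 (45356234 to 45356349) was control-only in the same sense. The BRG1 peaks, 763 and 1060 bp wide, ended 4 bp before the gap, and the control peaks, 1067 and 1068 bp wide, reached into it. THOC7 is a subunit of the THO complex of mRNA export and ATXN7 of the SAGA complex. The other control-only gaps were SHD/CCDC94, HCFC1R1/TNFRSF12A and C1QTNF5/MFRP. HCFC1R1/TNFRSF12A, the last symbol being the receptor for the cytokine TWEAK, had control peaks of 203 and 240 bp, and the nearest BRG1 peaks lay 208 and 892 bp away. SHD/CCDC94 had control peaks of 203.5 bp on average, close to the lowest width in any list, 200 bp, and BRG1 peaks 1647 and 1554 bp away.

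The split gaps as a whole followed BRG1 4 more than the groups. Of the 62, 29 had a peak in 1 library, 11 in 2 and 22 in 3. BRG1 4 alone had a peak in 15 and alone lacked one in 15, which together make 48.4%. BRG1 1 was alone in 1, control 1 in 7 and control 4 in 6. In 13 of the 15 gaps with a peak in BRG1 4 alone, such as RPL4/ZWILCH, TP53I13/GIT1 and PIGC/C9H1orf105, every other library had a peak within 1 kb. Those BRG1 4 peaks had a median width of 853 bp.

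At the 15 gaps that only BRG1 4 lacked, the peaks of the other libraries had a median percentile of 29.2. The nearest BRG1 4 peak was a median of 2241 bp away, and in 6 of the 15 it lay within 1 kb. Among these 6 were RPS18/B3GALT4, with a peak of 272 bp in BRG1 1 and of 309 and 246 bp in the control libraries, and RABEPK/HSPA5, where the BRG1 4 peak ended 11 bp short of the gap. HSPA5 encodes the endoplasmic reticulum chaperone BiP. Over all split gaps, 76 of the 131 missing calls (58%) had a peak of the same library within 1 kb.

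**Figure D5:**
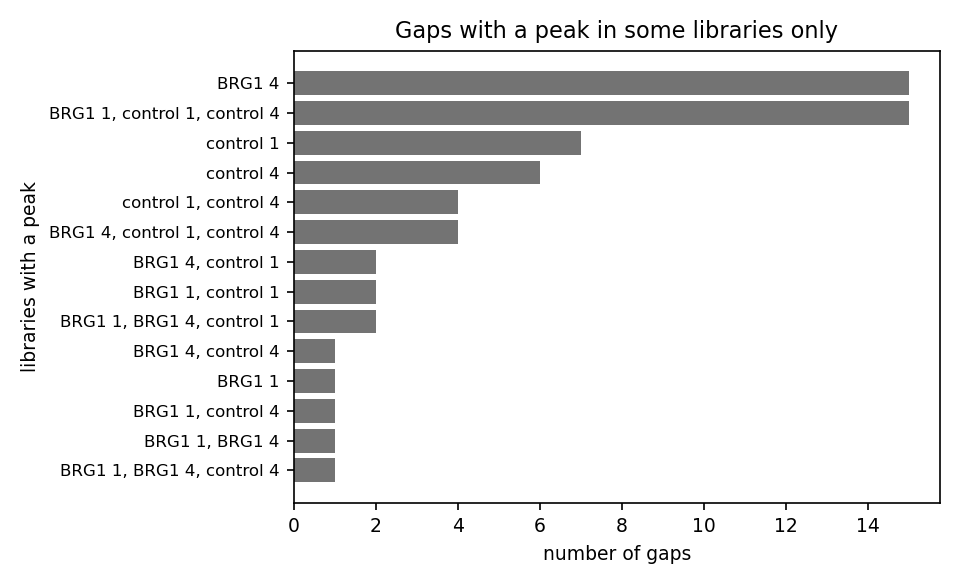
Number of the 62 split gaps with each combination of libraries that had a peak, as horizontal bars. BRG1 4 alone and the other 3 libraries without BRG1 4 have 15 gaps each, the pair of BRG1 libraries 1 and the pair of control libraries 4.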

How the data were processed

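ATAC-seq was analysed in 4 libraries, 2 per group as their titles give it. Peaks were called per library, since each library has its own deposited narrowPeak list. FastQC, BWA, Bowtie, SAMtools, MACS2 and the build Sscrofa11.1 are named without versions or roles, per the submitters' processing notes. The Tn5 shift, duplicate handling and caller settings can change the number and width of peaks and are not given in the sources used. The deposited fold is a ratio over local background. The deposited −log10 p-values and −log10 q-values are the authors' own, and the lowest −log10 q of the lists lay between 1.31 and 1.35. The deposited score is the −log10 q-value times 10 as a whole number (over 99.9% of peaks per list). These values were used only to rank or describe peaks within a list. Without depths, counting intervals were left out.

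Models were taken from RefSeq gene coordinates for Sscrofa11.1, a table with starts and ends but no strand or exons. The orientation of pairs, exon or UTR positions and sequence features were therefore not analysed here. Protein-coding models were merged, gaps of 1 to 1000 bp were taken between them, and an overlap of 1 bp counted. Groups of libraries were compared by exact permutation tests, two-sided. Scripts used Python 3.11.15, numpy 2.4.6, pandas 2.3.3 and matplotlib 3.10.9, and the counting was tested on simulated intervals. The members and lists were chosen with earlier results of these data known. Gaps were named by a fixed rule: the 8 of highest rank, the 5 widest and 3 narrowest peaks, BRG1-only and control-only gaps, the 6 shortest and 4 longest gaps, the 5 shortest without a peak, the listed shared-promoter pairs and BAF, fibroblast or collagen genes. Other gaps named as examples of gene groups, families, runs and split gaps were chosen after their values were seen. Same-numbered libraries did not deviate together in peak width over 1066 open gaps (r = −0.06) or in percentile (r = −0.11), so the numbers were not taken as pairs. The alternatives tried are listed with their effect in the closing section. One item is not reported here.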

Additional observations from a re-analysis of the deposited data

How the results depend on the processing

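Across 11 results and 16 alternatives, a difference kept its direction, though not always its size, or a count or share stayed near its value in 111 cases, while 29 values moved, 8 turned round and 1 became 0, and 0 comparisons reached a p below 0.05, which the design does not allow. A count was held to stay near its value within a fixed ratio of its main value. A share was held to do so inside the exact binomial interval of its main value. That interval treats gaps as independent, which they are not, so the tally is descriptive and no test. The 111 cases include the settings with replicate numbers as blocks, in which the mean difference cannot change in this design. The cause of these shifts was not tested. With lists cut to equal length, the difference in gaps with a peak (BRG1 minus control) was 0 and that in median percentile 0.59. With lists of 45425 peaks each they were 8.5 and 0.97, the BRG1-only and control-only gaps 6 and 2, open gaps without an accessible outer end 70.6% and gaps without a peak between accessible outer ends 30.6%. Where peaks had to cover 50% of the gap, the difference was 9.5 gaps, the BRG1-only and control-only gaps 7 and 2, and open gaps without an accessible outer end 65.1%. Where the summit had to lie in the gap, the difference in gaps with a peak was −23, 437 gaps were open, 7 BRG1-only and 28 control-only, gaps without a peak had both outer ends accessible in 31.7%, and adjacent gaps differed in state in 31.2%. For gaps of up to 500 bp, the difference in bases under peaks was −0.17 percentage points, open gaps had no accessible outer end in 66.9%, and adjacent gaps differed in 72.1%. For gaps of up to 2000 bp there were 3 BRG1-only and 8 control-only gaps, and the shares were 51.9 and 60.1%. Without LOC symbols there were 0 BRG1-only gaps, and 47.9% of gaps without a peak had both outer ends accessible. With models of at least 5 kb, open gaps had no accessible outer end in 67.6%.

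Leaving out each library in turn gave 2 to 16 BRG1-only gaps (16 without BRG1 1), 8 to 19 control-only gaps (19 without BRG1 1), 1067 to 1081 open gaps, and differences of −11.5 to −7.5 gaps with a peak, 1 to 25 gaps wholly inside peaks, 12.5 to 188 bp in width, −0.49 to 0.14 in percentile (0.14 without BRG1 4, 0.02 without control 1) and −0.20 to 1.82 percentage points of gap bases (−0.20 without BRG1 4). Open gaps without an accessible outer end made up 59.3 to 60.5%, gaps without a peak between accessible outer ends 43.0 to 44.4%, and adjacent gaps of differing state 66.8 to 67.3%. With the replicate number as a block, the difference in gaps with a peak was −9.5 (exact sign-flip p = 0.5, the smallest possible), and with crossed numbers, an alternative chosen after seeing the data, it was −9.5 too. In this balanced design the mean difference is the same for any pairing, so the repeated value is no sign of stability. Outer-end and adjacent-gap results were also added after seeing the data. The comparison by orientation of the pair was not run, because the gene table used has no strand.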

Other observations

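Gaps on the sex chromosomes, which the comparisons leave out, numbered 44 on chromosome X and 1 on chromosome Y. On X, 26 were overlapped by a peak in all 4 libraries, with 27 and 29 in the BRG1 libraries and 26 and 27 in the control libraries, and 0 were BRG1-only or control-only. Long non-coding RNA models touched 32 of the gaps on chromosomes 1 to 18, of which 18 were open and 13 had no peak. Of the gaps with at least 2 peaks, BRG1 1 had 10, BRG1 4 had 8, control 1 had 14 and control 4 had 16.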
